A study of Homo sapiens with 4 samples.

Results

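PML peaks at the 3' ends of genes, away from any transcription start site (TSS), were described in 2 classes taken from the annotation of the deposited peak list. A peak belonged to the 3' UTR class when its centre was annotated to the untranslated last stretch of a protein-coding transcript, and to the transcription termination site (TTS) class when it was annotated to the end of a transcript. HOMER, the annotation tool, draws the TTS window from 100 bp before to 1000 bp after a transcript end. Peaks centred within 1000 bp of a TSS were left out. This gave 892 3' UTR peaks of 899 so annotated and 1202 TTS peaks of 1511 so annotated, 2094 of the 68937 peaks of the list in all (3.04%), or 3.80% of the 55167 peaks over 1000 bp from a TSS.

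The list comes from chromatin immunoprecipitation and sequencing (ChIP-seq) in MDA-MB-231, an established human triple-negative breast cancer cell line, with no treatment or gene change named in the labels. An antibody to PML was used on cross-linked chromatin in 2 ChIP libraries, and 2 input libraries from the same line, which measure the chromatin before enrichment, served as the reference for calling peaks. The duplicates were merged, so each peak has 1 score and no replicate error, and peaks are not replicates of a condition. All intervals here are exact Clopper-Pearson 95% intervals for a share or exact Poisson 95% intervals for a count, they cover counting error only, and no test between classes was made.

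PML is the protein that forms the scaffold of PML nuclear bodies, spherical structures in the nucleus that gather other proteins through SUMO modification and that have been tied to senescence, apoptosis and transcription. At the 3' end of a gene the nascent RNA is cleaved and polyadenylated, and RNA polymerase II runs on past that point before it leaves the template. The 3' UTR, which lies between the stop codon and the cleavage site, carries the target sites of microRNAs (miRNAs) and RNA-binding proteins.

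Among the TTS peaks, 9 were annotated to the end of a miRNA gene. The mature miRNAs of 5 of these genes are shown, with 1 arm each, as products of the genes that the annotation names. They are given for reference, and no link between a peak and a miRNA was tested. Sequences are from RefSeq (GRCh38.p14), written 5' to 3', with the seed (bases 2 to 8), which pairs with target sites, in capitals.
hsa-miR-3187-3p: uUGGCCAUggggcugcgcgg
hsa-miR-4749-5p: uGCGGGGAcaggccagggcauc
hsa-miR-4458: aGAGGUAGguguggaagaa
hsa-miR-193a-3p: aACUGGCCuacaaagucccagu
hsa-miR-182-5p: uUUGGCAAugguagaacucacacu
No seed is shared among the 5 sequences shown. MIR3187 on chromosome 19 had the highest score of the 9 genes, 61, and its 2005 bp peak was the only 1 of the 9 that overlapped a hairpin listed in the RefSeq table, which holds hairpins for 7 of these genes. MIR4749 had a score of 48, MIR4458 35, MIR193A 31 and MIR182 26. The other 4 genes, MIR520F, MIR3177, MIR2116 and MIR1914, scored 26 to 37. The 9 peaks lay 1003 to 1062 bp from the nearest TSS, which for each of them was that of the miRNA itself: a miRNA gene is so short that the TTS window ends just past the 1000 bp limit.

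The peak score is a whole number that the authors deposited with no scale stated, and it was used only to rank and describe peaks within the list. The 3' UTR peaks had scores from 13 to 490, with a median of 31 and quartiles of 24 and 42. The TTS peaks ran from 13 to 557, with a median of 32 and quartiles of 25 and 47. Both medians lay at or 1 above the median of all peaks over 1000 bp from a TSS, which was 31. The classes differed more at the upper end. The highest-scoring quartile of the whole list (score above 49) held 17.1% of all peaks over 1000 bp from a TSS. It held 153 of the 892 3' UTR peaks (17.2%, interval 14.7 to 19.8), which is the level of that background. It held 263 of the 1202 TTS peaks (21.9%, 19.6 to 24.3), next to 22.7% (21.4 to 24.1) of exon peaks and 15.8% (15.3 to 16.3) of intron peaks. Scores of 100 or more were reached by 19 3' UTR peaks (2.13%) and 49 TTS peaks (4.08%). The same level was reached by 2.18% of all peaks over 1000 bp from a TSS, 3.31% of exon peaks and 1.53% of intron peaks. Median widths were 408 bp for 3' UTR and 431.5 bp for TTS peaks.

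**Figure D1:**
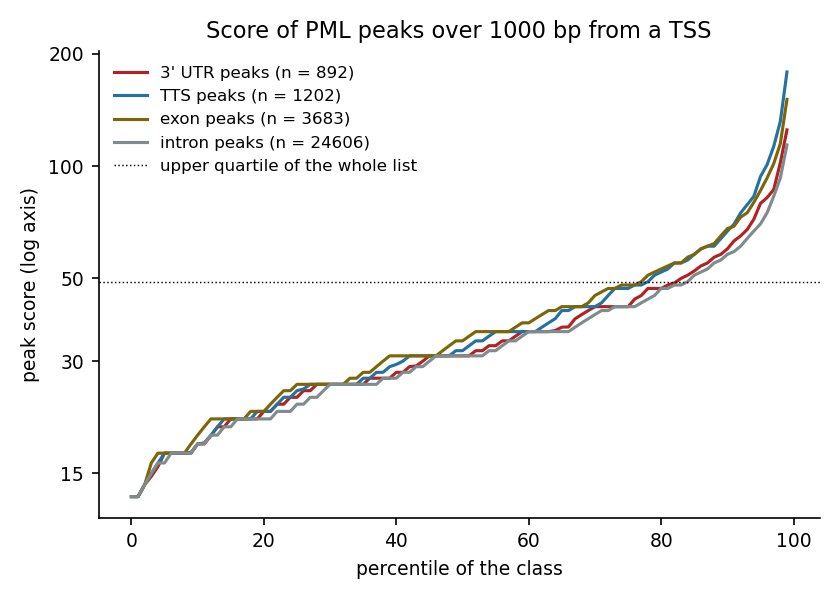
Score of PML peaks over 1000 bp from a TSS (log axis) at each percentile of its class, for 3' UTR, TTS, exon and intron peaks. The medians lie at 31, 32, 34 and 31, and the classes separate in their upper part, where the 3' UTR line follows the intron line more closely than the TTS and exon lines do.

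The TTS peaks lay nearer to a TSS than the 3' UTR peaks, with median distances of 6368 and 11783.5 bp, and high scores were rarer farther out, at 24.4% of all peaks from 1000 to 2000 bp and 15.7% beyond 10000 bp. The classes were therefore also set side by side within bands of distance. Beyond 10000 bp the highest-scoring quartile held 19.0% of 436 TTS peaks (15.5 to 23.0), 16.4% of 494 3' UTR peaks (13.2 to 20.0), 19.1% of exon peaks and 14.9% of intron peaks. From 5000 to 10000 bp it held 24.6% of 260 TTS peaks (19.5 to 30.3) and 16.8% of 196 3' UTR peaks (11.9 to 22.8), and the intervals overlapped. At 1000 to 2000 bp the shares were 23.7% of 139 TTS peaks, 22.9% of 48 3' UTR peaks, 34.3% of exon peaks and 21.7% of intron peaks. Within bands the 3' UTR and TTS intervals overlapped throughout.

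The highest-scoring 3' UTR peak lay on C11orf68, on chromosome 11 from 65914135 to 65920762 (hg38), with a score of 490. It was 6628 bp wide, and although its centre was 1614 bp from the TSS of C11orf68, the interval reached over that TSS. The peak of IER5L, a relative of the immediate early gene IER5, was of the same kind, with a score of 230 and a width of 5494 bp. These 2 were the only 3' UTR peaks whose interval reached the nearest TSS, so their scores are not separate from the promoters. LINC02983 followed with a score of 189 over 3113 bp.

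The other peaks of the 10 highest in the 3' UTR class were narrower and lay 4519 to 85655 bp from a TSS. SYT5, a synaptotagmin that binds calcium on secretory vesicles, had a 3' UTR peak of score 179, above the 100 of its promoter peak. PLD4, a member of the phospholipase D family that acts as a nuclease, had 147 against 31 at its promoter. PRDM12, a transcription factor of pain-sensing neurons, had 130 against 36. At these 3 genes the 3' UTR peak was the higher of the pair. RNF40, a ubiquitin ligase for histone H2B, had a score of 139, and the nearest TSS was that of ZNF629. RNF40 itself was the nearest gene of no peak within 1000 bp of a TSS. ATP11A, a lipid flippase of the plasma membrane, carried 2 peaks in its 3' UTR with scores of 128 and 126, below its promoter peak of 216. The 3' UTR peak of PCDHA10 (score 125) belonged to the short transcript of this protocadherin gene, and its centre lay 149353 bp before the end of the whole gene in RefSeq.

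The 2 highest TTS peaks were annotated to RNA45SN2, a copy of the 45S ribosomal RNA precursor, and to the neighbouring non-coding gene LOC100507412, both on chromosome 21, with scores of 557 and 495. Ribosomal DNA is repeated many times in the genome, and reads from its copies cannot be told apart, so the level at 1 annotated copy is uncertain. CCDC85B had a score of 368 over 4369 bp, on the same stretch of chromosome 11 as C11orf68. EEF1D, a subunit of translation elongation factor 1, had 280 over 9393 bp, the widest peak of both classes. GLI4, a zinc finger gene, had 258 over 4617 bp. The peaks of CCDC85B and EEF1D reached a TSS, that of CCDC85B itself and that of NAPRT, an enzyme of NAD synthesis, which lies beside EEF1D.

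Also among the 10 highest TTS peaks, DCST2 had a score of 284 at 950 bp past its end, against 18 at its promoter. LAG3, an inhibitory receptor of T cells, had 189 at 374 bp past its end, against 31 at its promoter. GRK4, a kinase of G-protein coupled receptors, had 221 against 102, and PLCB3, a phospholipase C, had 230 against 81. At all 4 genes the score at the gene end was above that at the promoter, which was the less common order, as given further on. LOC100132249, a non-coding gene of chromosome 9, had 223, below its promoter peak of 370.

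Some of the widest members came close to a start, as their width alone brings their edges nearer. Of the 2094 peaks, 30 were 2000 bp wide or more, with a median score of 101, and 27 of the 30 were in the highest-scoring quartile of the list. An edge lay within 1000 bp of the nearest TSS for 11 of the 30, and the interval reached it for 6: C11orf68, IER5L, CCDC85B, EEF1D, CYC1, which encodes cytochrome c1, and TUBGCP2, a subunit of the gamma-tubulin complex, whose peak reached the TSS of ADAM8. Over all members, the edge came within 1000 bp of a TSS for 17 3' UTR peaks (1.91%) and 47 TTS peaks (3.91%). The second widest 3' UTR peak, at NAT16 (6497 bp), had a score of 77, and the wide TTS peaks of CYC1 (6135 bp) and RHPN1 (5499 bp) had 179 and 162.

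Around the annotated ends of protein-coding genes, PML peaks were fewest at the end itself. This count used all peaks over 1000 bp from a TSS, whatever their class, at 17678 distinct gene ends, and it was chosen after the positions were seen. From 600 to 200 bp before the end there were 446 peaks (406 to 489), within 200 bp on either side 191 (165 to 220), and from 200 to 600 bp past the end 373 (336 to 413). Those 3 windows have the same length, so the flanks held 2.34 and 1.95 times as many peaks as the end. As a share, 18.9% (16.5 to 21.5) of the 1010 peaks within 600 bp of an end lay within 200 bp of it, where an even spread would give 33.3%. Farther out, the mean was 108 peaks per 100 bp from 3000 to 1000 bp before the end, 122 from 1000 to 200 bp before, 47.8 within 200 bp, 94.2 from 200 to 1000 bp past and 81.0 from 1000 to 3000 bp past.

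The dip was present at long and at short genes. Genes over 10 kb had 252, 110 and 244 peaks in the windows before, around and after the end, and genes up to 10 kb had 194, 81 and 129. In the highest-scoring quartile the counts were 81 (64.3 to 101), 49 (36.3 to 64.8) and 72 (56.3 to 90.7), with 24.3% (18.5 to 30.8) of them within 200 bp. There the interval of the count around the end overlapped those on both sides, and the share's interval overlapped that of all peaks. Within the TTS class the same pattern showed as few peaks next to the end: 45 and 50 peaks lay in the first and the second 100 bp past it, against 82 to 112 in each of the following 100 bp steps. Base composition and the share of the sequence to which reads can be mapped were not measured here, so their part in the dip was not tested.

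**Figure D2:**
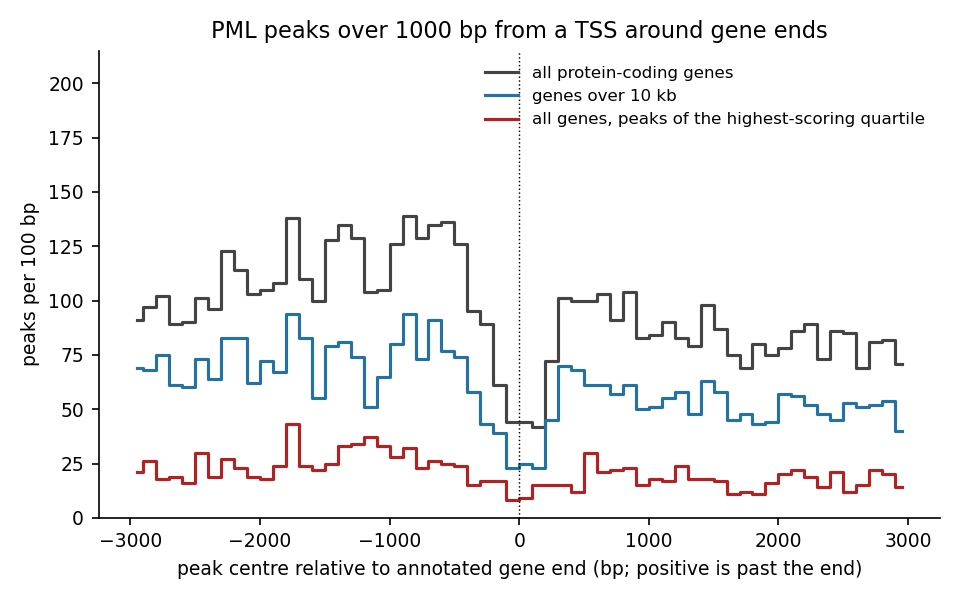
Number of PML peaks over 1000 bp from a TSS per 100 bp of distance between the peak centre and the annotated end of a protein-coding gene, with positive distances past the end, for all genes, for genes over 10 kb and for peaks of the highest-scoring quartile. For all genes the count drops to 42 to 61 per 100 bp within 200 bp of the end, from 89 to 139 between 1000 and 200 bp before it.

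The 3' UTR peaks lay in the last exon for 885 of 892 (99.2%), of host transcripts with a median of 9 exons. Their median position relative to the gene end in RefSeq was -1501 bp (negative values lie before the end), with quartiles at -3253 and -682 bp, over the 852 peaks whose host has a known strand. More than 10000 bp before the gene end lay 77 of them (9.04%). Such peaks lie in transcripts that end early within a longer gene or in very long 3' UTRs, which were not told apart. FBXL18, an F-box gene, held 4 peaks with scores of 22, 47, 15 and 44, at 21764 to 35930 bp before its end. Score did not follow position: the highest-scoring quartile held 17.2% of the 297 peaks in the last 1 kb and 18.2% of those over 10 kb before the end.

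The TTS peaks lay near a transcript end by their definition, so for the distance to the gene end only the exceptions carry information. Of 1135 with a known strand, 970 (85.5%) lay inside the window around the RefSeq end of their gene, and 137 (12.1%) lay more than 1000 bp before it, at the ends of shorter transcripts. ADAMTSL4, which encodes a secreted matrix protein, showed both kinds. Its 2 TTS peaks had scores of 187 at 631 bp past the gene end and 75 at 1232 bp before it. GREB1, an estrogen-regulated gene, had the most TTS peaks of any host, 3, with scores of 57, 62 and 34. A position past the end of the host can still lie in another gene. The centre was inside another protein-coding gene for 336 of the 1202 TTS peaks (28.0%, 25.4 to 30.6) and for 69 of the 892 3' UTR peaks (7.74%, 6.07 to 9.69).

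Hosts differed in type between the classes, which follows largely from the definitions. A 3' UTR belongs to a protein-coding transcript, while the TTS class takes the end of any transcript. Nearly all 3' UTR peaks, 887 of 892 (99.4%), had a host that RefSeq lists as protein-coding, whereas 973 of 1202 TTS peaks did (80.9%). The other 5 3' UTR peaks include that of LINC02983, which RefSeq lists as a long non-coding RNA (lncRNA) and the deposited table as protein-coding. Genes for lncRNAs hosted 185 TTS peaks (15.4%), with a median score of 34 and 21.6% in the highest-scoring quartile (15.9 to 28.3), close to the 33 and 22.4% (19.8 to 25.2) of protein-coding hosts. Among these lncRNAs, UCA1, first described in bladder cancer, had a TTS peak of score 117 and PAX8-AS1 one of 124; both were named after their values were seen. The 31 transcribed pseudogenes had a median of 26 and 9.68% in that quartile (2.04 to 25.8).

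A gene held several peaks mainly in the 3' UTR class. The 892 3' UTR peaks had 769 distinct hosts, of which 100 (13.0%, 10.7 to 15.6) held 2 or more, and the 1202 TTS peaks had 1178, of which 23 (1.95%, 1.24 to 2.92) did. A 3' UTR can be far longer than the TTS window, and the length of each 3' UTR was not used here. IQCE had 4 peaks along its 3' UTR, with scores of 71, 25, 21 and 53, all below its promoter peak of 216. SLC29A4, a monoamine transporter gene, had 3, with scores of 40, 32 and 116, the last above the 57 of its promoter. PLEKHG4B had 51 and 40, below its promoter score of 93, and 95, just above it. Both a 3' UTR and a TTS peak were found at 122 genes, which is 15.9% of the 3' UTR hosts and 10.4% of the TTS hosts. Of all 20037 protein-coding genes, 4.74% hosted a TTS peak and 3.81% a 3' UTR peak. The same overlap was not taken for hosts of exon or intron peaks.

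Host genes usually had a PML peak at their promoter as well, that is, a peak within 1000 bp of a TSS for which the table names the gene as nearest. Where a gene had several such peaks, its promoter score is that of the highest. Of all 20037 RefSeq protein-coding genes, 54.5% had such a peak, 3.81% hosted a 3' UTR peak and 4.74% hosted a TTS peak. Among the hosts, 593 of 764 with a 3' UTR peak (77.6%, 74.5 to 80.5) and 738 of 950 with a TTS peak (77.7%, 74.9 to 80.3) had a promoter peak. The shares were 68.7% for hosts of exon peaks and 73.6% for hosts of intron peaks, so most of the distance from the background was common to peaks anywhere in a gene.

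The share of genes with a gene end peak was larger at each step in the score of the promoter peak. Without a promoter peak, 1.87% of genes hosted a 3' UTR peak and 2.32% a TTS peak. In 4 groups of rising promoter score (13 to 40, 41 to 63, 64 to 106 and 107 to 899), the 3' UTR shares were 2.85, 3.94, 6.27 and 8.78%, and the TTS shares were 3.98, 4.99, 7.53 and 10.7%. The intervals of the highest group, 7.73 to 9.92% for 3' UTR and 9.51 to 11.9% for TTS, lay above those of the lowest, 2.26 to 3.54% and 3.28 to 4.78%. The same held at the ends of the range for peaks in introns, at 27.1% of genes in the lowest and 53.5% in the highest group, and for peaks in exons, at 13.4 and 24.1%. Gene length moved with promoter score, with a median of 16.3 kb without a promoter peak, 26.9 kb in the lowest group and 37.9 kb in the highest.

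Within groups of gene length, genes were divided only by whether they had a promoter peak, not by its score. Among genes up to 10 kb, 10.5% (9.29 to 11.8) of those with a promoter peak and 2.65% (2.13 to 3.25) of those without hosted a TTS peak. Among genes over 50 kb the TTS shares were 4.50% and 1.87%, and the 3' UTR shares 5.76% and 2.53%. Among genes with a promoter peak the TTS share was thus larger at short than at long genes, while the 3' UTR share was 4.16% at genes up to 10 kb and 5.76% over 50 kb.

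**Figure D3:**
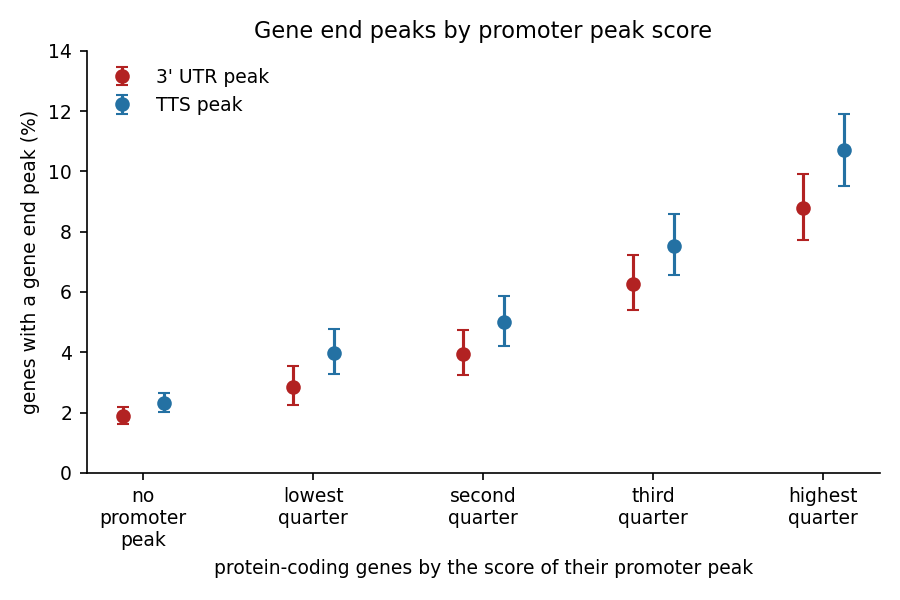
Percentage of RefSeq protein-coding genes that host a 3' UTR or a TTS peak, for genes without a promoter peak and for genes in each of the 4 groups of promoter peak score, with exact 95% intervals. Both classes climb from the group without a promoter peak (1.87 and 2.32%) to the highest group (8.78 and 10.7%).

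At a gene with both, the gene end peak was mostly the lower one. The score was below that of the highest promoter peak for 625 of 705 3' UTR peaks (88.7%) and 703 of 840 TTS peaks (83.7%). The median ratio was 0.346 and 0.404. All peaks over 1000 bp from a TSS had a median score of 31, and the promoter peaks of all protein-coding genes that had one a median of 63. The same shares were not taken for exon or intron peaks. Above their promoter peak were 72 3' UTR peaks (10.2%, 8.08 to 12.7) and 122 TTS peaks (14.5%, 12.2 to 17.1). SYT5, PLD4, PRDM12, DCST2, LAG3, GRK4 and PLCB3, described above, are of this smaller group.

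**Figure D4:**
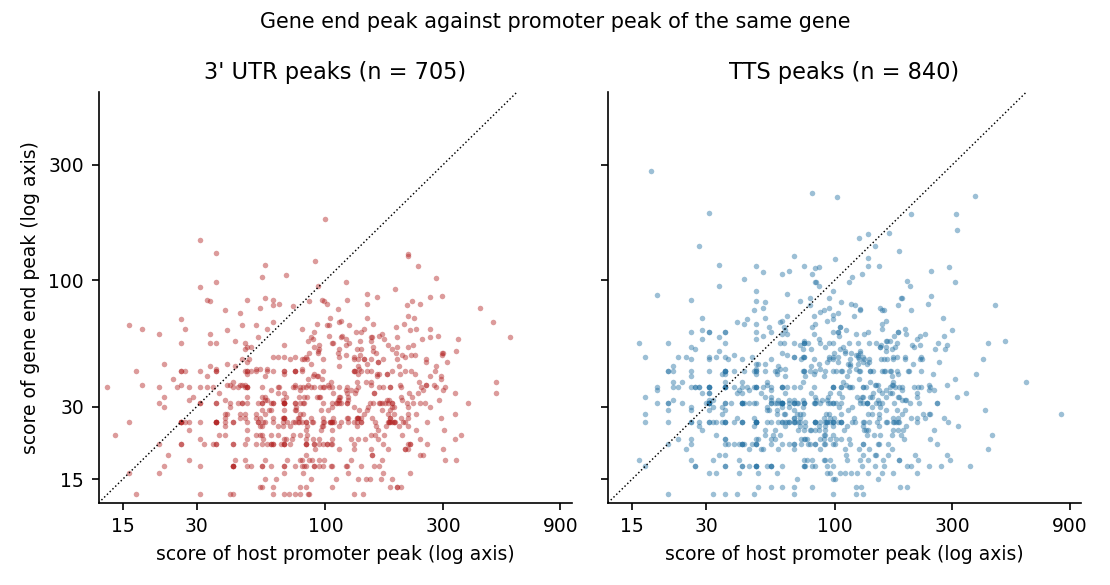
Score of each gene end peak against the score of the highest promoter peak of the same gene, both on log axes, for 705 3' UTR peaks and 840 TTS peaks. The line marks equal scores. Most points lie under the line, with median member scores of 31 and 33 and median promoter scores of 93 and 84.

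The TSS nearest to a gene end peak was often that of another gene, for 529 3' UTR peaks (59.3%, 56.0 to 62.5) and 616 TTS peaks (51.2%, 48.4 to 54.1). For those TTS peaks it lay within 5000 bp in 43.5%, and for those 3' UTR peaks in 25.3%. The peak at AMACR, an enzyme of branched fatty acid oxidation, was 471 bp past its end and 1001 bp from the TSS of SLC45A2. A nearest-gene list would give such a peak to the neighbour.

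Some ends were shared by 2 genes that run toward each other. For 172 of 1135 TTS peaks (15.2%, 13.1 to 17.4) the centre was also within 1000 bp of the end of a protein-coding gene on the other strand, and for 10 of 852 3' UTR peaks (1.17%). The 2 shares cannot be compared, because centres close to a transcript end fall mostly to the TTS class. Only 3 of the 852 3' UTR centres (0.352%) lay in the TTS window of their own gene's end. The share of all gene ends that face another was not counted. The highest peak at a shared end, with a score of 284, was that of DCST2. The gene on the other strand was ZBTB7B, a transcription factor of T cell lineage choice. The peak of PLCB3, at 230, shares its end with BAD, which promotes apoptosis. At IFFO1 and GAPDH, the glycolytic enzyme gene, the score was 113. Further pairs were RPL36 with LONP1, a mitochondrial protease (81), SQSTM1, the autophagy receptor p62, with MRNIP (79), and MOV10, an RNA helicase, with RHOC, a small GTPase (76). Of the TTS peaks at shared ends 16.9% (11.6 to 23.3) were in the highest-scoring quartile, against 22.4% (19.8 to 25.2) of the other TTS peaks. Among 3' UTR peaks it was 3 of 10 at shared ends (interval 6.67 to 65.2%) against 17.0% (14.5 to 19.7) of the others. In both classes the intervals overlapped.

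Gene end peaks stood in denser surroundings than most. The median gap to the next peak was 1763 bp for 3' UTR and 1323 bp for TTS peaks, against 1984 bp for exon, 2779 bp for intron and 3429 bp for all peaks over 1000 bp from a TSS. Over the host gene and 1000 bp on each side lay a median of 5 peaks in the 3' UTR class and 4 in the TTS class. The highest counts were 108 at CDH23, a cadherin of inner ear hair cells, and 133 at MAD1L1, a spindle checkpoint gene. These counts were not set against gene length or against other genes. The 3' UTR peak was the only peak over 41 hosts (5.33%), and at 119 TTS hosts (10.1%) a single peak was found.

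The study's title names ribosomal genes, senescence, mTOR and the factor RONIN, encoded by THAP11. Over all 20037 protein-coding genes 1593 (7.95%, 7.58 to 8.33) hosted a gene end peak of either class, and each gene group was set beside that share. Cytosolic ribosomal protein genes hosted one at 15 of 89 (16.9%, 9.75 to 26.3), 5 with 3' UTR and 10 with TTS peaks, with a median score of 40 against 31.5 over all protein-coding hosts. RPL10 had the highest, 157 in the TTS class against 166 at its promoter, and the TSS nearest to it was that of SNORA70, a small nucleolar RNA inside the gene. RPL27A had 120 in its 3' UTR, above the 91 of its promoter, and RPL36 had 81. The median length of these genes was 5.13 kb, and among genes with a promoter peak the TTS share was largest in the group up to 10 kb, as given above; the part of length in this share was not tested.

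The 77 mitochondrial ribosomal protein genes were near the background, with 5 hosts (6.49%, 2.14 to 14.5), all in the TTS class: MRPS15 at 42, MRPS23 at 34, MRPS35 and MRPL49 at 22 and MRPL15 at 18. Of the 52 mTOR pathway genes, 5 were hosts (9.62%, 3.20 to 21.0). AKT1, the kinase upstream of mTOR complex 1, had 98, and LAMTOR2, a lysosomal anchor of the complex, 26. The arginine sensor CASTOR1 and its relative CASTOR2 had 24 and 21. MTOR itself had a TTS peak of score 15, on chromosome 1 from 11106007 to 11106343, 360 bp past its end. That score is 2 above the lowest of the list. PML, THAP11 and RPTOR had 0 gene end peaks.

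For PML body proteins and senescence genes the shares were 8.57% (3 of 35) and 9.76% (4 of 41), each with an interval that holds the background. RNF4, the ubiquitin ligase that acts on SUMO-modified PML, had a TTS peak of 49 and a 3' UTR peak of 34, BLM, a helicase, 30, and UBN1, a histone chaperone subunit, 17. Among the senescence hosts were HMGA1, a chromatin architectural protein (42), BHLHE40, a transcriptional repressor (37), and LMNA, which encodes lamin A (29). E2F and cell cycle genes had 5 hosts of 69 (7.25%): CDC25B, POLA2, CCND2, CDT1 and E2F6, with scores from 25 to 55.

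Immediate early and collagen genes had larger shares, and with 15 lists and unadjusted intervals these are descriptions only. Immediate early and AP-1 genes, which respond within minutes to growth signals, had 7 hosts of 37 (18.9%, 7.96 to 35.2), led by JUNB at 68, IER2 at 61 and IER5 at 42, and their median length was 5.27 kb. Collagen genes had 10 hosts of 44 (22.7%, 11.5 to 37.8) at a median length of 145 kb, with COL9A2, COL27A1 and COL18A1 each at 36. ZNF zinc finger genes lay below it, with 27 of 509 (5.30%, 3.52 to 7.62), led by ZNF653 at 106, ZNF275 at 84 and ZNF471 at 63. None of the 69 replication-dependent histone genes (up to 5.21%), the 392 olfactory receptor genes (up to 0.937%) or the 22 cleavage and polyadenylation genes (up to 15.4%) was a host. Most of a histone gene, with a median length of 0.494 kb, lies within 1000 bp of its TSS, where peaks were left out.

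Markers of the cell state were near the background. Mesenchymal and basal B markers, which this line is known to express, had 3 hosts of 45 (6.67%, 1.40 to 18.3), among them MMP14, a membrane protease (47 and 25), and PLAU, the urokinase gene (42). Luminal markers had 2 of 43 (4.65%, 0.568 to 15.8), with OVOL1, an epithelial transcription factor, the higher at 75. No RNA was measured in these files, so the expression of any host in these cells is not known from them.

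Per 100 protein-coding genes, gene end peaks were most frequent on chromosome 9 (19.0), followed by 5 (15.6), 20 (14.9), 8 (14.3) and 14 (13.6), and least on 3 (5.91), 6 (3.43), 18 (1.48, from 4 peaks) and Y (0 peaks). Chromosomes 9, 5 and 8 also had many peaks over 1000 bp from a TSS of any class, 4.42, 5.06 and 5.59 per gene, and chromosome 6 few, 1.49. Chromosome 19 had few such peaks per gene, 1.19, but its 164 gene end peaks made up 9.51% of them, the largest share of any chromosome. Chromosomes 16 and 17 were alike in this, with 1.07 and 1.22 such peaks per gene and shares of 7.36 and 7.28%. The share was 0.950% on chromosome 18. The 10 Mb with the most gene end peaks was chromosome 11 from 60 to 70 Mb, with 73, where C11orf68, CCDC85B and PLCB3 lie.

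**Figure D5:**
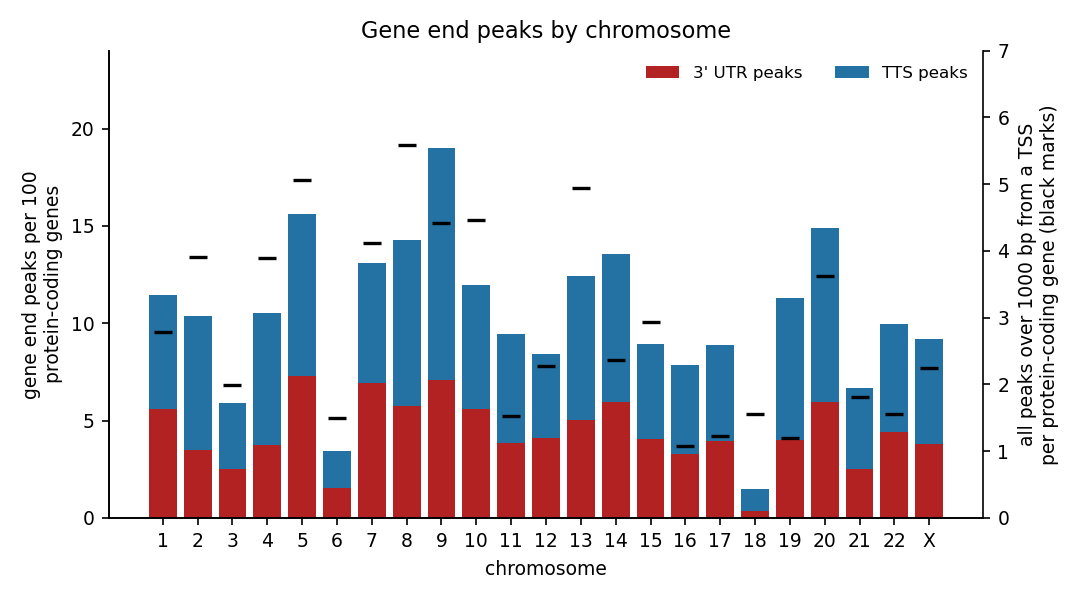
Gene end peaks per 100 protein-coding genes on each chromosome, 3' UTR and TTS stacked (bars, left axis), with all peaks over 1000 bp from a TSS per protein-coding gene (black marks, right axis); chromosome Y, with 0, is not drawn. Chromosome 9 has the tallest bar (19.0) and chromosome 18 the shortest drawn (1.48). On chromosome 19 the bar is high for its mark (11.3 against 1.19), as it is on 16 (7.85 against 1.07) and 17 (8.90 against 1.22).

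A dense region at the end of chromosome 8 held several of the strongest members. From 140 Mb on, it had 21 3' UTR peaks with a median score of 58 and 44 TTS peaks with 55.5, among them EEF1D, GLI4, CYC1 and RHPN1. The highest-scoring quartile held 52.4% (29.8 to 74.3) and 54.5% (38.8 to 69.6) of them, against 38.6% (36.0 to 41.3) of all peaks over 1000 bp from a TSS there. By class it held 59.7% (47.0 to 71.5) of exon, 39.7% (35.7 to 43.8) of intron and 32.8% (29.0 to 36.8) of intergenic peaks there. Each of these shares was above the 17.1% of all peaks over 1000 bp from a TSS in the whole list. Only the exon share in the region was as high as those of the gene end peaks. DNA copy number was not measured in these files, and its part in the scores of the region was not tested. Without this region and the end of chromosome 5, the TTS share in the highest-scoring quartile was 20.1% and the 3' UTR share 16.3%.

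The 1000 bp limit removed few 3' UTR peaks and many TTS peaks. Just outside it, and so kept, were the 3' UTR peaks of COX6B2 (1052 bp, score 62), SPRR2A (1059 bp, 26) and SPRR2D (1064 bp, 25) and the TTS peaks of AMACR (1001 bp, 27), MIR3177 (1003 bp, 31) and MAPK11 (1015 bp, 26). Just inside it were the 3' UTR peaks of DEXI (769 bp, 26), KRTAP4-4 (621 bp, 36) and H2AX (514 bp, 106) and the TTS peaks of DNASE1L1 (996 bp, 60), MIR7150 (993 bp, 31) and MIR4672 (981 bp, 13). The 309 TTS peaks left out had a median score of 49, and 165 of their hosts were not protein-coding.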

How the data were processed

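The deposited file is 1 table of annotated peaks from the merged PML ChIP-seq duplicates in MDA-MB-231 cells. Per the file headers it gives each peak's position, score, annotation and distance to the nearest TSS; the authors' score holds whole numbers whose scale no header or label states. HOMER 4.11.1, MACS2 2.1.1.20160309, BWA 0.7.12, Trimmomatic 0.36, Picard 2.0.1 and hg38 appear in the submitters' processing notes, without settings. The depth of the libraries is unknown here, and the enrichment of a peak over input was not recomputed.

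The host is the gene of the annotated transcript, found through RefSeq (GRCh38.p14) for all but 18 members, whose host came from the table's own gene columns. Strand came from RefSeq promoters or from the signed TSS distances, which matched at 9479 of 9482 genes checked (within 5 bp of a gene end). Width is end minus start plus 1. Distances use peak centres. The table kept no sample apart, so shares and counts have exact intervals in place of tests. Python 3.11.15, numpy 2.4.6, pandas 2.3.3 and scipy 1.17.1 were used, and the code was tested on simulated data.

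Named per class were the 10 highest and 3 widest peaks, the 5 hosts with the most peaks, the peaks beside the 1000 bp limit, the members of 15 gene lists (the 3 highest hosts where there were over 5) and 4 genes of the study's title. The members and lists were chosen with earlier results of these data known. Some genes and a gene list that this rule names are not reported here. Alternatives were a distance limit of 5000 bp, a score limit, another host rule and leaving out dense regions.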

Additional observations from a re-analysis of the deposited data

How the results depend on the processing

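No paired analysis was possible because the duplicates were merged into 1 peak list, and for the same reason no replicate could be left out. Of 52 values under alternative settings, 42 stayed within their interval or within 1.5 times a count, and 10 moved; 12 of the 42 come from the repeat and CpG island setting, which removed no member and could not change a value. With only peaks at or above the list's median score, 395 3' UTR and 580 TTS peaks were left, with median widths of 503 and 540 bp; fewer peaks follow from that setting. With a limit of 5000 bp from a TSS, 696 TTS peaks were left, and 72.8% of them had a promoter peak at the host. With the nearest gene of the table as host, the promoter share was 69.5% for 3' UTR and 66.9% for TTS peaks. With any peak within 1000 bp of the host's RefSeq start, chosen after seeing the data, the TTS share was 75.2% of the 1135 peaks whose host has a known strand; by the table's promoter peaks it was 71.3% of the same 1135. By RefSeq starts 61.5% of the 17797 protein-coding genes with a known strand had such a peak. This set is smaller than the 20037 genes behind the 54.5% given above, so the 2 shares are not alike. The gene end profile and its alternatives were also chosen after seeing the data, and in the highest-scoring quartile 24.3% of the peaks within 600 bp of an end lay within 200 bp.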
